A study of Caenorhabditis elegans with 6 samples.

Results

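The 802 regions described here are those on chromosome II among the 4511 regions of the authors' combined file, chosen by their chromosome name alone. The series profiled EGL-43 binding in Caenorhabditis elegans, a nematode, by NanoDam, in which a GFP nanobody fused to the Dam methylase marks GATC sites near a GFP-tagged protein. The tested animals carried the single-copy fusion bmdSi244 and, as allele egl-43(bmd88), an endogenous EGL-43::GFP, in strain DQM975, with 3 samples. The control animals carried bmdSi244 alone, in strain DQM986, with 3 samples, so the Dam fusion was present in both groups. All were L3 larvae, pools of about 5000 synchronised worms, grown at 25 degrees for 24 h after the L1 larvae were put on food, on Dam-minus bacteria. The fusion was driven by an anchor cell promoter, named lin-29 in the sample titles. DNA was taken from whole worms, and the peak lists hold no expression values, so the labelled cell type could not be checked against marker genes.

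EGL-43 is a zinc-finger transcription factor of the family that includes mammalian EVI1. The anchor cell is a uterine cell that induces the vulva and then breaches the basement membranes between the uterus and the vulval cells, and EGL-43 is needed both for its specification and for its invasion. In DamID methods the enzyme marks whole GATC fragments around a bound protein, so a peak is a run of fragments and not a footprint. The autosomes of C. elegans have a gene-dense centre with little recombination flanked by arms that are richer in repeats. The egl-43 gene itself lies on chromosome II, as do lin-29, the cell cycle inhibitor genes cki-1 and cki-2, the EGF receptor gene let-23, and the fusogen genes eff-1 and aff-1, by the RefSeq gene table of assembly WBcel235. Of 32 anchor cell, vulva and cell cycle genes looked up in it, 18 were on chromosome II, and many of them were chosen for lying there. That table is of another build than ce10, which the submitters' processing notes name for the deposited coordinates, so no region is paired with a gene here.

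The authors deposited 1 peak list per replicate number, each setting 1 EGL-43::GFP library against the control library of the same number, and giving each peak a score and an FDR (false discovery rate). The control is therefore inside every value, and no control level can be given beside it. The depth of the libraries is unknown. The labels do not say whether the samples were separate cultures, so the spread between lists may be technical. Wilson intervals (95%) cover counting error only and treat regions as independent. In what follows a score percentile is the rank of a peak among all peaks of its own list over the whole genome, from 0 to 100.

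Each list supported about the same number of chromosome II regions. A peak of replicate 1 lay in 213 of the 802 regions (26.6%, 95% Wilson interval 23.6 to 29.7%), against 26.2% of all regions of the series. Replicate 2 supported 209 regions (26.1%, interval 23.1 to 29.2%), against 25.2% of all regions. Replicate 3 supported 217 (27.1%, interval 24.1 to 30.2%), against 26.2%. In all 3 lists the chromosome II share lay close to the background share.

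On chromosome II, 497 regions (62.0%, interval 58.6 to 65.3%) held a peak of at least 1 list, against 61.3% of all regions. The other 305 (38.0%, interval 34.7 to 41.4%) held none. There were 385 regions with peaks of 1 list (48.0%), 82 with peaks of exactly 2 lists (10.2%, interval 8.31 to 12.5%) and 30 with peaks of all 3 (3.74%, interval 2.63 to 5.29%). Over all regions of the series the shares with exactly 2 and with all 3 lists were 8.47% and 3.95%. On the other 5 chromosomes the share with exactly 2 lists ran from 6.07 to 9.74% and the share with all 3 from 3.46 to 4.58%. The chromosome II share for 2 lists was above that range and the share for 3 lists inside it, and neither difference was tested.

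The 82 regions of 2 lists were not divided evenly among the pairs of lists. Replicates 1 and 3 shared 35 of them, replicates 1 and 2 shared 30, and replicates 2 and 3 shared 17. Of the regions with 1 list, 118 came from replicate 1, 132 from replicate 2 and 135 from replicate 3. Replicates 2 and 3 therefore had the fewest regions in common although neither list was short.

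The same order appeared in the peaks themselves. The lists held 220, 210 and 224 peaks on chromosome II in replicates 1, 2 and 3, a mean of 218 ± 7.21 (SD, n = 3 lists). In replicate 1, 68 of 220 peaks were met by one of replicate 3 (30.9%, 95% Wilson bounds 25.2 and 37.3%), and 59 by one of replicate 2 (26.8%, bounds 21.4 and 33.0%). In replicate 2, 44 of 210 peaks were met by one of replicate 3 (20.95%, bounds 15.99 and 26.95%). Counting the peaks of either list of a pair, 30.6% were common to replicates 1 and 3, 27.2% to replicates 1 and 2, and 20.5% to replicates 2 and 3, on average 26.1 ± 5.15% (SD over 3 pairs that share lists). The mean on the other chromosomes ran from 24.6% on X to 27.1% on V, so the average agreement of the lists on chromosome II was inside their range.

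Where peaks of 2 lists met on chromosome II, they usually met over much of a peak. The median overlap was 932 bp for the 60 overlapping pairs of replicates 1 and 2, 1170 bp for the 71 of replicates 1 and 3, and 817 bp for the 45 of replicates 2 and 3. Only 2, 3 and 5 of these pairs touched in a single base. A common first or last base was found in 26, 30 and 15 pairs (43.3%, 42.3% and 33.3%), and the pairs with both ends the same numbered 8, 11 and 1. Whether these common bases are GATC sites was not tested, since no genome sequence of the build was used.

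Regions were wider the more lists supported them. The median width was 896 bp for regions with no list peak, 1070 bp with 1 list, 2024 bp with 2 lists and 3404 bp with all 3. Every chromosome showed this order, and the medians of the other 5 ran from 886 to 1068 bp with no list peak and from 2820 to 3718 bp with 3 lists. The regions of all 3 lists on chromosome II ranged from 1000 to 8134 bp. All list peaks of chromosome II lay in a combined region, and a wider region has more room for peaks, so width and support are not independent measures.

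**Figure D1:**
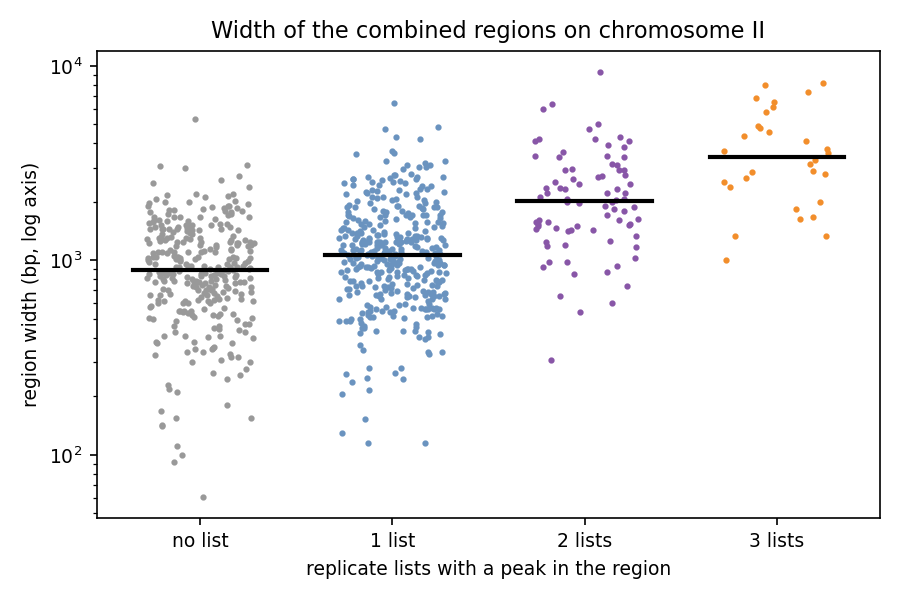
Width of each of the 802 combined regions on chromosome II (points, log axis in bp) by the number of replicate lists with a peak in it, with the median as a black bar. The medians rise from 896 bp with no list peak to 3404 bp with 3 lists, and the 4 groups overlap.

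Single peaks showed the same order within each list. Peaks in regions of 1 list had median widths of 1066, 1060 and 956 bp in replicates 1, 2 and 3. Peaks in regions of 2 lists had medians of 1354, 1337 and 1222 bp, and peaks in regions of 3 lists had 1872, 1542 and 1718 bp. The 3 classes did not overlap between lists in median width.

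Scores followed support less evenly. In replicate 3 the median score percentile was 36.5 for peaks of 1-list regions, 68.1 for 2-list regions and 76.3 for 3-list regions. In replicate 1 it was 42.4, 62.1 and 52.5, so that peaks found in 2 lists ranked above those found in 3. In replicate 2 it was 47.9, 46.5 and 64.7. Over the lists the means were 42.3 ± 5.73, 58.9 ± 11.2 and 64.5 ± 11.9 (SD, n = 3), and the spread between lists covers the step from 2 to 3 lists.

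High-scoring peaks were found again more often than all peaks in replicates 1 and 3, but not in replicate 2. Chromosome II held 19, 20 and 23 peaks in the upper 10% by score of replicates 1, 2 and 3. In replicate 2, 13 of the 20 were in no other list, 4 were in regions of 2 lists and 3 in regions of all 3. In replicate 1 the corresponding numbers were 6, 7 and 6, and in replicate 3 they were 6, 7 and 10. Of all chromosome II peaks, 118 of 220, 132 of 210 and 136 of 224 in replicates 1, 2 and 3 were in no other list. The 13 of 20 in replicate 2 was near that share, and the numbers of replicates 1 and 3 were below it. Replicate 2 had more high-scoring chromosome II peaks without a partner than either other list.

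Examples of such peaks were those ranked 2 and 3 by score in replicate 2, from 12872202 to 12874255 with a score of 3.92 and from 9323012 to 9325628 with a score of 3.90. Replicate 1 had one from 4051326 to 4052362 with a score of 3.75 and one near the right end, from 15208115 to 15208770, with a score of 3.74. None of these positions had a peak in either other list.

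The 30 regions of all 3 lists differed widely in how well the lists agreed on their scores. In 14 of them the best peak scored above the list median in every list, and in 2 it was in the upper 10% of every list. In 14 at least 1 list placed it in its upper 10%. The median distance between the highest and the lowest percentile of a region was 31.7 points. The FDR was at or under 0.001 in all 3 lists for 19 of the 30. The lowest percentile of a region fell in replicate 2 for 14 regions, in replicate 1 for 10 and in replicate 3 for 6.

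**Figure D2:**
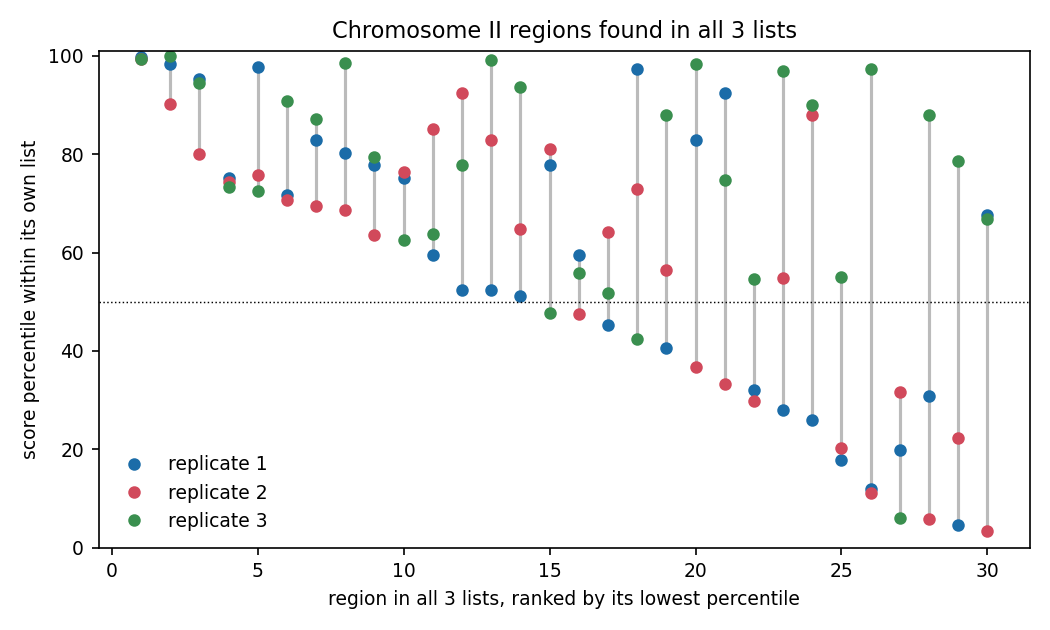
Score percentile of the best peak in replicates 1, 2 and 3 (points) for the 30 chromosome II regions found in all 3 lists, ranked by the lowest percentile, with a grey line over the range and a dotted line at the list median. The first 2 regions stay above percentile 90 in every list, while the region ranked 26 spans percentiles 11.1 to 97.2.

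The highest-ranked region ran from 14231499 to 14234035 on chromosome II, 2537 bp wide. Its scores were 4.90 in replicate 1, 4.30 in replicate 2 and 4.59 in replicate 3, at percentiles 99.8, 99.3 and 99.4, the highest score of the chromosome in replicates 1 and 2. All 3 peaks began at 14231499, and those of replicates 1 and 3 also ended at the same base, 14233998, so that 98.5% of the region was common to the lists. The FDR was 6.80e-08, 5.09e-09 and 3.66e-09. No other region on the chromosome ranked this high in every list.

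Second came the region from 11336341 to 11338992, the only one of the 30 whose peaks had the same 2652 bp extent in all 3 lists. It scored 3.73, 3.42 and 5.26 in replicates 1, 2 and 3, at percentiles 98.3, 90.1 and 99.8. The score of replicate 3 was the highest on chromosome II in that list. These first 2 regions combined high scores with nearly identical peak ends.

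A short way to the left of the first-ranked region, across a gap of 6293 bp, lay another region of all 3 lists, from 14223542 to 14225205. It scored 3.65, 3.08 and 2.44, and all 3 peaks began at its first base, while the peak of replicate 3 stopped after 537 bp. Another, from 14185255 to 14188798, was 34.7 kb further left, with scores of 2.06, 3.35 and 2.84. Its percentile of 26.03 in replicate 1 placed it among the weaker regions. Further right, the region from 14676961 to 14683451 scored 2.87, 2.96 and 2.75, and its peaks covered different parts of 6491 bp. The part common to the 3 lists there was 1188 bp, and in replicate 3 it lay in a second peak with a score of only 1.68.

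A stretch around the second-ranked region held 4 more. The nearest, from 11304628 to 11310404, was 25.9 kb to the left of it, with scores of 2.77, 2.86 and 2.56. To its right, from 11542777 to 11547334, the scores were 3.34, 3.16 and 3.09, at percentiles 95.2, 80.0 and 94.5, with 2509 bp common to the lists. The region from 11708963 to 11710590 scored 2.72, 3.06 and 2.45, and its percentiles of 75.2, 74.4 and 73.3 were the closest together among the regions after the first. All 3 of its peaks ended at the same base. The last, from 11900497 to 11904624, scored 2.12, 2.17 and 2.78, and its 3 peaks had 1 base in common.

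Near the middle of the chromosome several, though not all, of the regions of all 3 lists were broad, with peaks that were less alike. The region from 7806743 to 7814697 was covered whole by 1 peak of replicate 2, with a score of 3.53. Replicates 1 and 3 each had 2 peaks in it, and the first of the 2 had the same extent in both, from 7808117 to 7810614. The scores there were 2.36 in replicate 1 and 2.20 in replicate 3. Of the 5 widest regions on chromosome II, 4 lay in this stretch and held peaks of all 3 lists. They ran from 7629940 to 7638073, from 7674625 to 7681932, from 7806743 to 7814697 and from 8126691 to 8133486, and were 8134, 7308, 7955 and 6796 bp wide.

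The region from 8126691 to 8133486 was an example of a score carried by 1 list. It scored 3.36 in replicate 3, at percentile 97.2, but 1.91 and 2.24 in replicates 1 and 2, at percentiles 12.0 and 11.1. The widest region of all, from 13816365 to 13825661, was 9297 bp wide and had peaks of replicates 2 and 3 only, with scores of 2.19 and 2.42.

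Of the other named regions in the middle, the one from 8783512 to 8787887 scored 2.65, 2.98 and 2.88, with 555 bp common to the lists. Between 9059911 and 9066058 the scores were 2.72, 3.09 and 2.27, and between 9618010 and 9620838 they were 2.44, 3.27 and 2.29. Between 8222502 and 8227314 replicate 3 was the lowest, with 2.77, 3.18 and 2.07 in replicates 1, 2 and 3. The part common to the lists there lay in a second peak of replicate 2, with a score of 2.24. In these 4 regions the peaks were offset from one another, and the common part was between 11.5 and 17.97% of the region. To the right of the central tertile (33.3 to 66.7% of the span), the scores were 2.35, 2.88 and 3.02 between 10543214 and 10546951. Between 12797457 and 12800232 they were 2.36, 3.21 and 4.12. There the peaks of replicates 1 and 2 had the same extent, and that of replicate 3 extended further to the left.

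In the left tertile, the highest-ranked region ran from 4199571 to 4203225. It scored 2.82, 2.95 and 3.78, at percentiles 80.3, 68.6 and 98.6, and 2141 bp were common to the lists. It was the only one of the 15 highest-ranked regions on the left side of the chromosome. The 15 regions ranked after these had a lowest score of 1.60 to 2.55, widths of 1000 to 8134 bp, and an FDR at or under 0.001 in all 3 lists in 7.

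**Figure D3:**
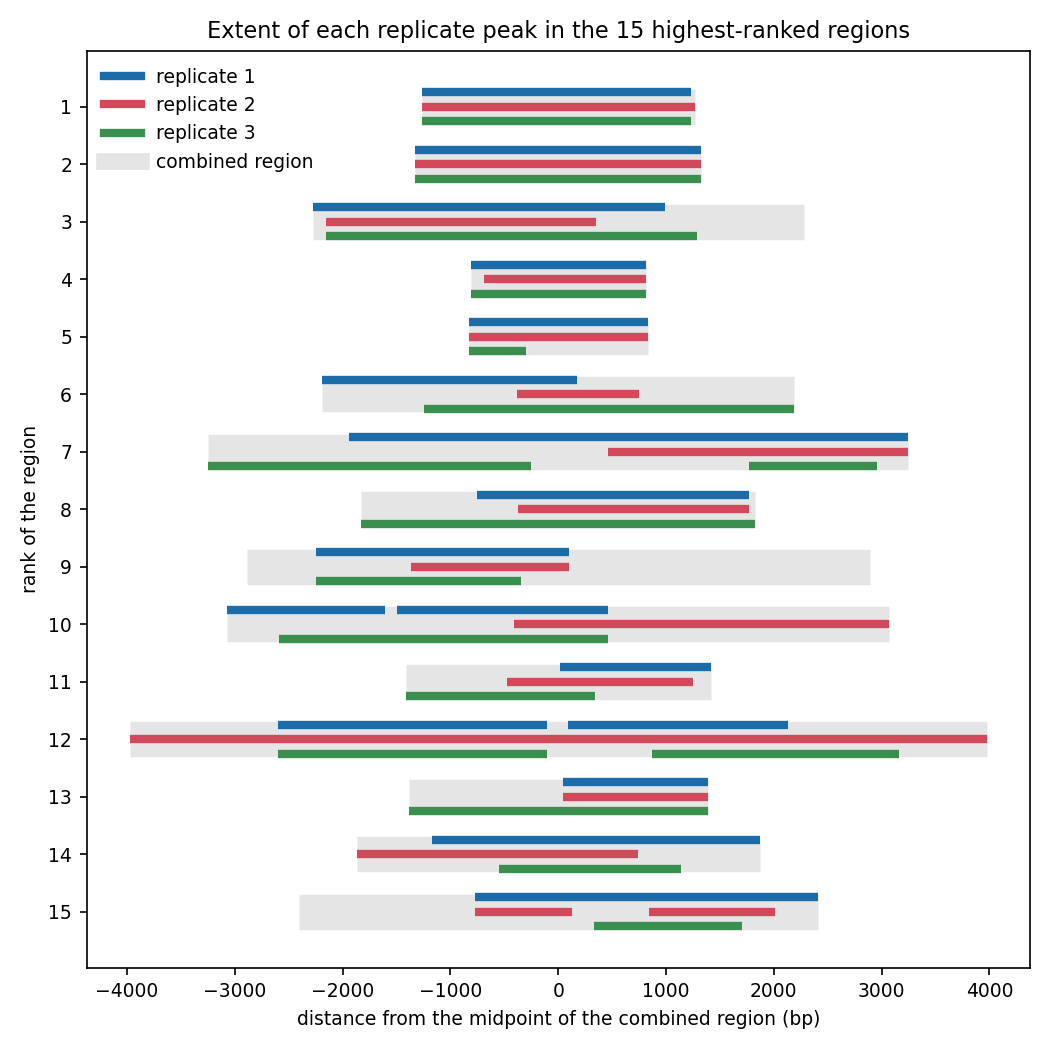
Extent of the peaks of replicates 1, 2 and 3 (coloured bars) within the 15 highest-ranked chromosome II regions of all 3 lists (grey), as distance in bp from the midpoint of the combined region. The peaks of the regions ranked 1 and 2 lie over one another, while those ranked 6, 11 and 15 are offset.

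The common part of the 3 lists was short in most of the 30 regions. In 28 of them at least 1 base lay in a peak of every list. The median common part was 868 bp, or 31.5% of the region, and it ran from 1 bp in 2 regions to 2652 bp. The 2 regions without a common base ran from 13334275 to 13336657 and from 6174485 to 6179412. A first base common to all 3 lists was found in 5 regions, and a common last base in 3.

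Among regions with exactly 2 lists, 33 of 82 had peaks above the list median in both. Only 1 was in the upper 10% of both, from 11027325 to 11028824. It had the second highest score on chromosome II in replicate 1, 4.06, and in replicate 3, 4.90, and no peak in replicate 2. The next was from 14141203 to 14142735, with 3.00 in replicate 1 and 3.76 in replicate 2 and no peak in replicate 3. A region from 5768430 to 5769627 scored 2.97 in replicate 1 and 3.04 in replicate 3. With the depth unknown, a peak missing from a list cannot be told apart from one that was under-sampled.

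Regions of all 3 lists lay mostly on the right side of chromosome II, that is, to the right of the midpoint of its span. Of the 30, 25 had their own midpoint on the right side and 5 on the left side (83.3% right, 95% Wilson interval 66.4 to 92.7%). By tertiles of the span, 15 lay in the right one, 12 in the central one and 3 in the left one. The 5 on the left side began at 1238784, 2216663, 4199571, 6174485 and 7629940, and the gaps between them ran from 0.98 to 1.98 Mb. The last of these had its midpoint at 49.98% of the span, next to the boundary. The sides and tertiles of these regions were compared after their positions had been seen.

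The right-side share was lower for regions with less support. It was 48.9% for the 305 regions with no list peak (interval 43.3 to 54.4%), 54.8% with 1 list (interval 49.8 to 59.7%), and 56.1% with 2 lists (interval 45.3 to 66.3%). For all 802 regions it was 53.7% (interval 50.3 to 57.2%). Over all regions of each other chromosome it ran from 46.5% on I to 56.1% on III, so the chromosome II value was inside their range. The difference between the support classes on chromosome II was not tested.

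On the other chromosomes the regions of 3 lists were divided about evenly. Their right-side share ran from 46.4% on IV to 55.6% on X, and over these 5 chromosomes 74 of 148 were on the right side (95% Wilson interval 42.0 to 58.0%), with 42 in the right tertile, 58 in the central one and 48 in the left one. These shares rest on the same 3 lists, and no test over regions was made. With 1 list left out, 68.1 to 73.8% of the chromosome II regions in both remaining lists were on the right side. Each of these sets contains the same 30 regions of all 3 lists, so this range is not independent of their position.

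The peaks of each single list were also more frequent on the right side. They include the peaks of the regions of all 3 lists, so this is not independent of the position of those regions. The sides were compared after positions had been seen, and the share without those peaks was not tested. On chromosome II, 63.6%, 58.1% and 57.6% of the peaks of replicates 1, 2 and 3 were on the right side, against 48.4%, 49.0% and 48.4% of the peaks on the other autosomes. The mean difference was 11.2 ± 3.51 percentage points (SD, n = 3 lists), higher in 3 of 3 lists, with an exact paired permutation p of 0.25 (two-sided), the smallest that 3 lists can give. Chromosome III had the next highest share, between 53.4 and 55.3% in the lists, below the lowest chromosome II value.

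Within chromosome II, the sides also differed in how many peaks were found again. Peaks of 3-list regions made up 21.4%, 21.3% and 21.7% of the right-side peaks in replicates 1, 2 and 3, against 6.25%, 5.68% and 6.32% of the left-side peaks, which restates in each list the split of the same 30 regions. Regions of 2 or 3 lists held 70 of 140, 49 of 122 and 60 of 129 right-side peaks, against 32 of 80, 29 of 88 and 28 of 95 left-side peaks. The share was higher on the right in each list, but the lists share these regions and so are not independent here. These counts include the peaks of 3-list regions, which numbered 30, 26 and 28 on the right side and 5, 5 and 6 on the left side. Without those peaks, the side with the higher share was not the same in every list. The median score percentile was 52.5, 57.4 and 55.8 on the right side, against 48.99, 37.9 and 49.96 on the left side. The median peak width was 1238, 1187 and 1187 bp on the right side, against 1352, 1049 and 985 bp on the left side, so that width went the other way in replicate 1. The part of these differences in score and peak number in the right-side excess was not tested.

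**Figure D4:**
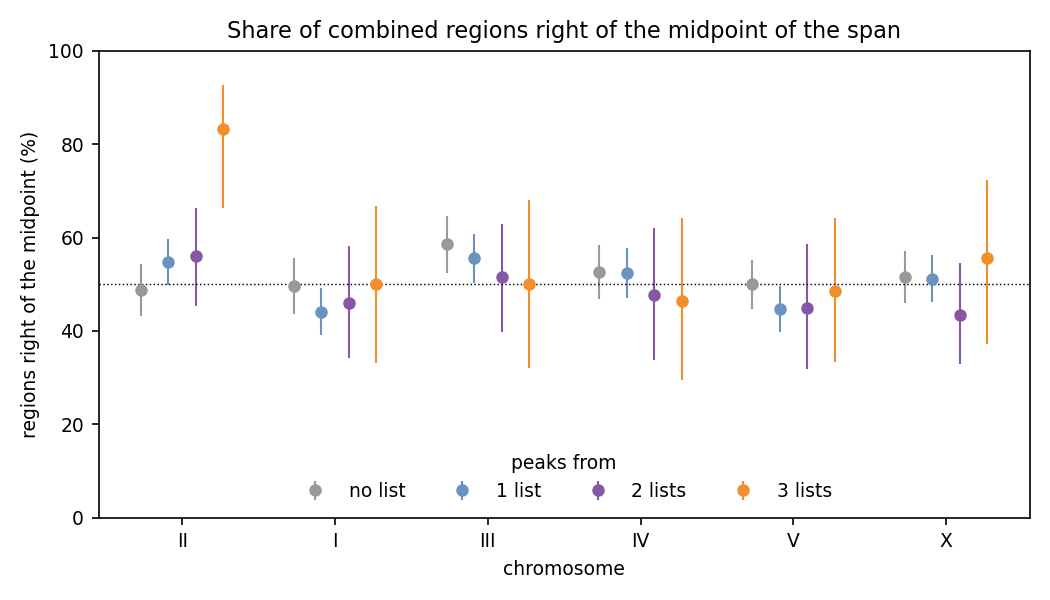
Percentage of combined regions with their midpoint right of the midpoint of the chromosome span, by chromosome and by the number of lists with a peak in the region, with 95% Wilson intervals and a dotted line at 50%. On chromosome II the value is 83.3% for 3 lists and 48.9% for regions with no list peak, while the 3-list values of the other chromosomes lie between 46.4 and 55.6%.

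The lists changed along the chromosome in much the same way. When the span of 15.3 Mb was cut into 10 equal parts, the second held the fewest peaks on average, 13.3 ± 3.21 (SD, n = 3 lists), and the first 13.7 ± 3.06. The sixth held 33 in each of the 3 lists. In the eighth there were 38, 23 and 32 peaks in replicates 1, 2 and 3. Across the 10 parts, Spearman's rho was 0.83 between replicates 1 and 3, 0.76 between 1 and 2, and 0.70 between 2 and 3. Each part covers the same stretch of the genome in every list, and all parts of a list come from the same libraries. These correlations are therefore descriptive.

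Combined regions were most numerous just left of the middle. The fifth part held 121 of them, of which 65 had no list peak, so that 46.3% were supported by a list. In each other part the supported share lay between 60.2 and 69.0%. The 9 regions of 3 lists in the sixth part were the most in any part, and the fourth part had none. The highest number of combined regions and the highest number of 3-list regions thus fell in neighbouring parts on either side of the midpoint.

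**Figure D5:**
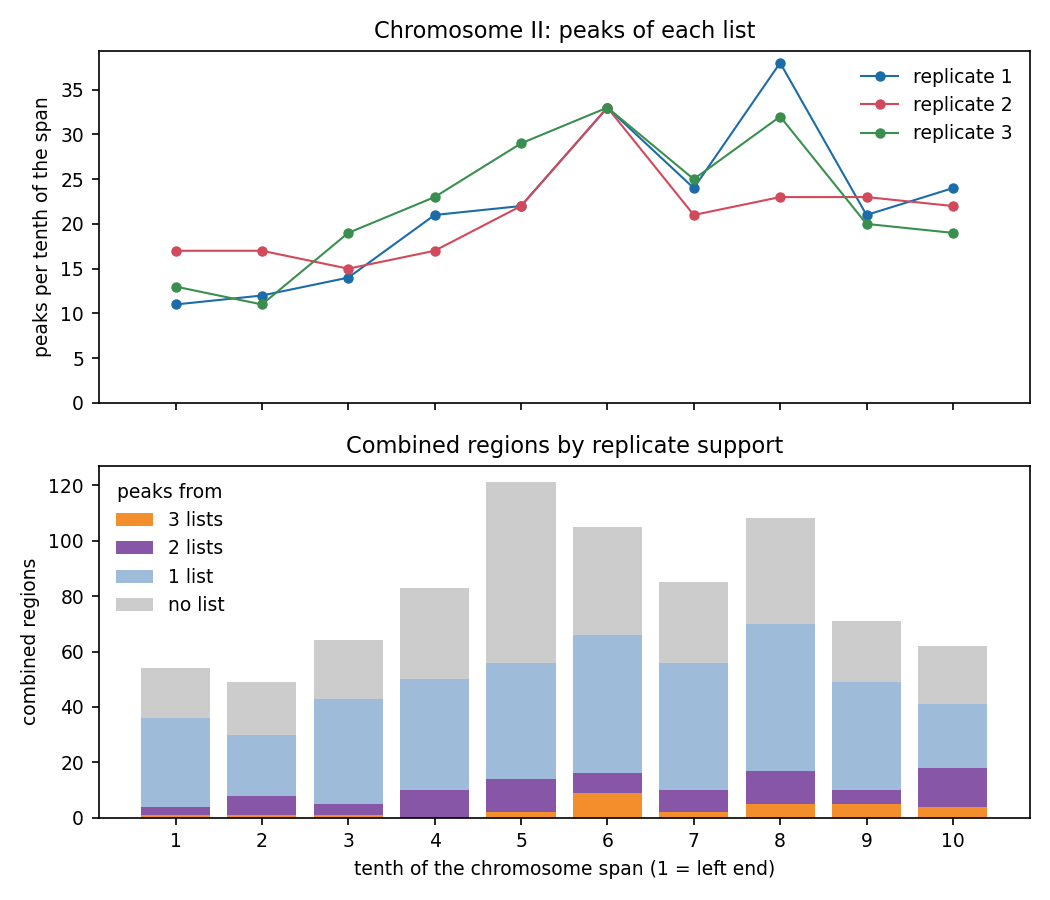
Number of peaks of replicates 1, 2 and 3 (upper panel, lines) and of combined regions by replicate support (lower panel, stacked bars) in 10 equal parts of the chromosome II span, from the left end. The sixth part has 33 peaks in each list, and the fifth has the most combined regions, 121.

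The share of peaks in the centre of chromosome II, set against that of the other autosomes, depended on where the centre was drawn. In replicates 1, 2 and 3, 38.6%, 36.7% and 43.3% of chromosome II peaks lay in the central tertile, against 41.5%, 34.7% and 43.1% on the other autosomes. The mean difference was -0.23 ± 2.45 percentage points (SD, n = 3 lists), with an exact paired permutation p of 1 (two-sided), and its sign turned with the upper 50% of scores (1.23 points) and without replicate 1 (1.10 points). With the centre as the middle 50% of the span it was -4.91 points, lower on chromosome II in 3 of 3 lists (exact paired permutation p = 0.25, the smallest possible). The left tertile held 18.2%, 27.1% and 20.5% of the peaks and the right one 43.2%, 36.2% and 36.2%. The arms therefore differed from each other more than the centre differed from the right arm. For combined regions the central tertile held 336 of 802 (41.9%, interval 38.5 to 45.3%), the right one 272 and the left one 194.

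Chromosome II carried more peaks per length than the other autosomes together. The density was 14.4, 13.7 and 14.7 peaks per Mb in replicates 1, 2 and 3, against 11.4, 11.4 and 11.7 per Mb on the others. The mean difference was 2.76 ± 0.40 per Mb (SD, n = 3 lists), higher in 3 of 3 lists (exact paired permutation p = 0.25, two-sided, the smallest possible). Chromosome III, with 14.3, 12.3 and 14.95 peaks per Mb, overlapped chromosome II, as did chromosome I, with 12.8, 14.2 and 13.9. The excess was thus over the pool of autosomes, in which IV and V averaged 9.82 and 9.87 per Mb. Peaks covered 1.99%, 1.88% and 1.91% of the chromosome II span.

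The 802 regions covered 1.10 Mb, or 7.20% of the span, at 1 region per 19.0 kb. The median gap between neighbours was 10.2 kb, with quartiles at 3.80 and 23.5 kb, and the range was from 19 bp to 216 kb. Of the 801 gaps, 100 were under 1500 bp (12.5%) and 9 were over 100 kb. Over the 10 parts of the span, the median gap was 22.0 kb in the second part and 6.46 kb in the fifth. Spacing was therefore wider toward the left end than in the middle.

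The longest stretch without any region ran from 14823876 to 15039688, 216 kb near the right end. The next longest were in the left part of the chromosome, from 3141517 to 3308090 (167 kb) and from 1297226 to 1448989 (152 kb). No list had a peak in these stretches, since every list peak on chromosome II lay in a combined region. Whether reads could be mapped there was not tested.

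The regions of all 3 lists had a median gap of 228 kb between them, and 4 of the 29 gaps were under 50 kb. Besides the gaps of 6.29, 34.7 and 25.9 kb described above, one of 36.6 kb separated the regions that end at 7638073 and begin at 7674625. On the left side, by contrast, 3 gaps exceeded 1 Mb, the longest 1982 kb.

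The 305 regions without a list peak covered 310 kb. Their median distance to the nearest list peak was 10.3 kb, and 33 of them (10.8%) were within 1500 bp of one. Among the 497 regions with a list peak, 71 (14.3%) were longer than the peaks in them, by a median of 640 bp. This was so for 44 of the 1-list regions (11.4%), 19 of the 2-list regions (23.2%) and 8 of the 3-list regions (26.7%). How the combined file came to hold intervals beyond the lists is not given in the sources used here.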

How the data were processed

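Per the submitters' processing notes, minimap2 and SAMtools were used and the build was ce10; the peak caller is not given in the sources used here. The authors deposited 3 peak lists and 1 combined file. The score in each list is the authors' own, per the file's score column, and its scale is not stated; the FDR of every peak is under 0.01. Replicates were not pooled in the lists. The control and the tagged sample of one number name the same list, per the labels. Combined starts were raised by 1. The other deposited positions were used as they are.

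A peak supported a region when they overlapped by at least 1 bp. The span was taken to the last base reached by any deposited interval. The centre is the central tertile of the span. Chromosome II and the pooled other autosomes were compared by an exact two-sided paired permutation, with a list as the unit. Simulated intervals were used to test the overlap code. Tools were Python 3.11.15, numpy 2.4.6, pandas 2.3.3, scipy 1.17.1 and matplotlib 3.10.9.

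The regions named are 15 regions of all 3 lists, taken in the order of the lowest score percentile they have in any list, the 5 widest and the 3 longest gaps; other peaks and regions named were chosen after their values were seen. The members, the lists and the tests were chosen with earlier results of these data known. Alternatives tried were peaks up to an FDR of 0.001, the better-scoring 50% of each list, an overlap of 50%, peaks up to 1500 bp apart, another centre, coverage in place of counts, and each list left out.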

Additional observations from a re-analysis of the deposited data

How the results depend on the processing

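The mean percentage of peaks shared by a pair of lists, 26.1% as reported, moved less with most settings than the number of regions in every list. On chromosome II, 19 regions were in all 3 lists with an FDR at or under 0.001 and 14 with the upper 50% of scores, where 542 had no list peak, since fewer peaks were used. Without one replicate, 47 to 65 regions were in both remaining lists and 423 to 440 had no list peak, and the mean shared percentage ran from 20.5 to 30.6%, the lowest without replicate 1. With a distance of 1500 bp, 40 regions were in all 3 lists and the mean shared percentage was 31.3%. Requiring 50% overlap cannot change support, since list peaks lie inside the regions, but it lowered the mean shared percentage to 21.8%.

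The right-side share of regions in all lists, for which the alternatives were chosen after seeing the data, was 84.2% with the stricter FDR, 92.9% with the upper 50% of scores (14 regions) and 68.1 to 73.8% without one replicate. All of these sets are part of, or contain, the same 30 regions, so they are not independent of the reported share. The central difference from other autosomes changed sign with the upper 50% of scores (1.23 points, exact permutation p = 0.75) and without replicate 1 (1.10 points, p = 0.50, exact permutation), and ran from -1.32 to 1.10 without one replicate. With the centre as the middle 50% it was -4.91 (exact permutation p = 0.25). The causes were not tested. The excess of peaks per Mb kept its sign in every setting run and ran from 2.64 to 2.99 without one replicate.

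No paired analysis was possible because each list is already 1 tagged library against the control of its number, which leaves no fit of tagged and control samples with the number as a block. The paired permutation compares chromosomes within a list. A chromosome length from a reference of the same build was not run. Library depth is unknown and limits what a missing peak means.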
